A study of Drosophila melanogaster with 2 samples.

Results

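The 200 transposable element features with the most transcripts were examined in single cells of the eye-brain complex of Drosophila melanogaster larvae. They were chosen by their summed UMIs (unique molecular identifiers, tags that let each captured RNA molecule be counted once) over all cells, from 2017 transposable element features among 15902 features in all. An element feature is 1 annotated insertion of the reference genome, named by its family and a number. The total UMIs that set the rank are therefore a description and support no result. The last members were G4{}4515 with 314 UMIs and F{}349 with 313, and the first elements left out were 1360{}1480 with 312 and jockey2{}1521 with 311.

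Transposable elements are mobile DNA sequences. LTR retrotransposons (roo, Dm88, Stalker2, gypsy, mdg1, 297) and non-LTR retrotransposons (R2, HeT-A, Doc, F) move through an RNA copy, whereas DNA transposons (H, FB, mariner2, 1360) move as DNA. In Drosophila, Piwi-interacting RNAs, small interfering RNAs and heterochromatin keep most families silent, and many old copies lie in introns and in heterochromatin near the centromeres.

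Of the 2 libraries that the sample labels list, one came from control animals (mirr>OreR). The other came from animals in which the mirr driver, active in dorsal eye cells, silences the complex I subunit gene ND-42 (mirr>ND-42 RNAi, line BL28894). For each, brain and eye disc tissue was pooled from animals grown from about 50 embryos at 25 °C to an age of 120 h. The 2 deposited tables are identical, so they hold 1 set of 33552 cells whose genotype is open, and no comparison between the genotypes was made. The genotype was not assigned from any gene. With 1 set of cells there are no replicates and no test: each ratio below has an exact 95% interval (Clopper-Pearson, on the split of UMIs), which covers counting error only, since cells are not replicates. Depth per cell ranged from 500 to 333220 UMIs (median 4092).

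The 200 members held 405320 UMIs, which was 80.4% of all transposable element UMIs and 0.166% of the 243468253 UMIs of the table. At least 1 member UMI was found in 95.4% of the cells, with a median of 7 per cell. UMIs per member lay between 313 and 105117, and their median was 671, against 31 for all element features. The first 10 members held 51.0% of the UMIs. Members were longer than element features in general, with a median length of 4545.5 bases against 1402.5. They came from 74 named families, with 106 LTR retrotransposons (64.5% of the member UMIs), 45 non-LTR retrotransposons (20.6%), 45 DNA transposons (13.8%) and 4 without a family name. By chromosome, 62 lay on 2R, 39 on 3L, 29 on the small chromosome 4, 27 on 3R, 25 on X and 17 on 2L, with 1 on an unplaced scaffold. Of those on 2R, 49 lay in the first 6 Mb, next to the centromere, as did 379 of all 536 element features on 2R.

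**Figure D1:**
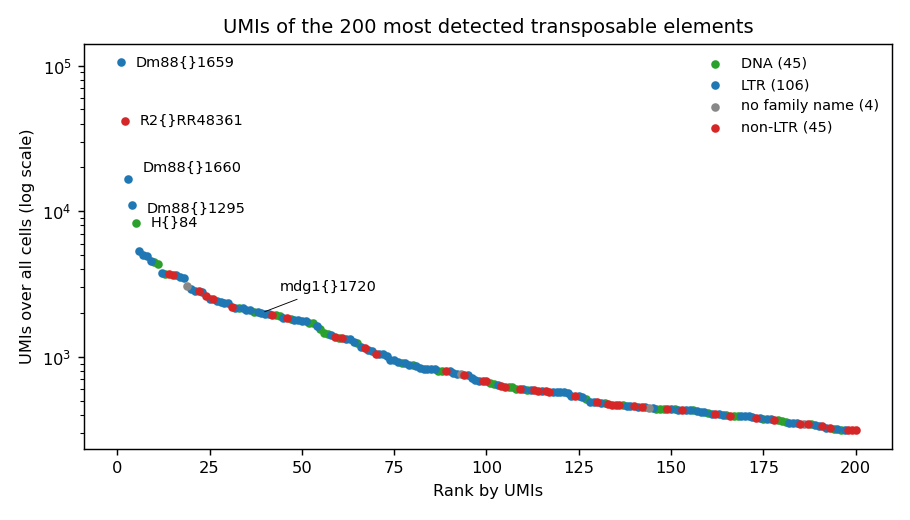
UMIs over all cells (log scale) of the 200 members by their rank, with LTR retrotransposons in blue, non-LTR retrotransposons in red, DNA transposons in green and elements without a family name in grey. Dm88{}1659 with 105117 UMIs and R2{}RR48361 with 41635 stood above a slope that ended at 313.

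Single sites supplied much of the signal, and the first 4 members held 43.0% of the member UMIs. Dm88{}1659 (FBti0059720) lies on chromosome 3R of the BDGP6 genome at 12469667-12470922 on the minus strand, and 66.9% of the cells held at least 1 of its UMIs. Dm88{}1660 (FBti0059721, 3R at 12472390-12473289, 16593 UMIs) and Dm88{}1295 (FBti0020330, 3R at 12468478-12469312, 10957 UMIs) lie beside it on the same strand. The 3 fragments of this LTR retrotransposon together held 132667 UMIs, or 32.7% of the member UMIs, while the other 11 Dm88 features of the table held 1614. They lie between genes, downstream of lncRNA:alphagamma-element:CR32865 (3R at 12475336-12478267, minus strand, 184288 UMIs) and upstream of Hsp70Ba (3R at 12465453-12467776, minus strand), with 2047 bases between Dm88{}1660 and the former. The alphagamma-element is a non-coding transcript of this heat-shock locus, and the Hsp70 genes encode the main heat-inducible chaperones. The cells were dissociated at 37 °C for 10 min in 0.25% Trypsin-EDTA, and a control at a lower temperature was not part of these data.

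The pooled level of the 3 fragments, in UMIs per 10000 UMIs (the unit of every level below), was 4.69 in neuroblasts, 5.12 in neurons, 4.78 in glia, 3.45 in hemocytes, 5.79 in antenna and 6.36 in eye cells. It was thus highest in eye cells, and the levels of the 6 Hsp70 genes, summed because their copies are nearly identical, were 9.44, 12.3, 10.2, 10.5, 11.5 and 12.8 in the same order. Cells of 2000 UMIs or more were then ordered by their summed Hsp70 level and split into 4 bins of 6446 cells. Across these bins, from low to high, the level of the Dm88 fragments was 2.56, 4.28, 6.26 and 8.69, a ratio of 3.39 between the highest and the lowest. The alphagamma-element moved the same way, from 4.54 to 11.3. R2{}RR48361 was at 1.58 in the lowest, 1.95 in the second and 1.53 in the highest bin, and its ratio within classes lay between 0.527 in antenna and 1.23 in neurons. The constitutive chaperone gene Hsc70-4 was at 18.3 in the lowest and 18.8 in the highest bin. The remaining members went from 8.33 to 11.0, a ratio of 1.32. The median depth was 4973, 6397, 6463.5 and 4449 UMIs, so it did not follow the order of the bins. Within the classes the ratio for the Dm88 fragments was 5.24 in neuroblasts, 3.12 in neurons, 4.49 in glia, 2.36 in antenna and 3.17 in eye cells. Whether these reads come from Dm88 transcription or from read-through of the neighbouring heat-shock genes cannot be told apart.

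R2{}RR48361, the second member by UMIs, lies on X at 23220092-23223699 on the plus strand, 2952 bases after the pseudogene entry 28SrRNA-Psi:CR45859. R2 is a non-LTR retrotransposon that inserts into the 28S ribosomal RNA genes and is read from their transcript. Its 41635 UMIs lay in 20.5% of the cells, with up to 209 in 1 cell. Its level was 2.59 in neuroblasts, 1.19 in neurons, 2.16 in glia, 3.88 in hemocytes, 1.88 in antenna and 1.44 in eye cells. The level of pre-rRNA:CR45845, a precursor ribosomal RNA, was 5.56, 6.20, 8.03, 10.3, 8.63 and 6.41 in the same order, and thus lowest in neuroblasts, where R2 was high. Neuroblasts were 1.66-fold (1.63 to 1.70) above all other cells, whereas neurons were at 0.633 of them (0.617 to 0.650). When cells were split into 4 such bins by their level of this RNA, R2 was at 0.943 in the lowest and 2.71 in the highest bin, a ratio of 2.88. The ratio was 1.42 for the Dm88 fragments and 1.37 for the remaining members over the same bins. Within classes R2 had a ratio of 2.57 in neuroblasts, 2.99 in neurons, 3.24 in glia, 4.27 in antenna and 2.10 in eye cells. These orderings were chosen after the values had been seen.

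The other members among the first 10 were spread over more classes of element. H{}84, a DNA transposon on X, held 8327 UMIs and lies in an intron of nAChRalpha3, which encodes a subunit of the acetylcholine receptor, on the opposite strand. The LTR retrotransposons rooA{}4276 (2R, 5304 UMIs), Stalker2{}1001 (3L, 5032 UMIs), invader2{}RR46358 (3R, 4923 UMIs) and Stalker2{}1042 (3L, 4522 UMIs) and the foldback DNA transposon FB{}1604 (3L, 4490 UMIs) completed them. Stalker2{}1001 lies in an intron of CG17839 and invader2{}RR46358 in one of Parp1, the poly(ADP-ribose) polymerase, both on the strand of the gene. FB{}1604 overlaps the edges of the genes CG7369 and SPoCk. All of these were detected in every class except Stalker2{}1042, which had 0 UMIs in the 30 hemocytes.

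Most members were found in few molecules per cell. The median member had 1.08 UMIs per cell in which it was found, and the median member held 3.79% of its UMIs in its 10 richest cells. In 14 members this share was above 10%, and in 3 it was above 20%, namely mdg1{}1720 at 41.9%, roo{}1034 at 33.0% and roo{}34 at 30.6%. Values of these 3 rest on few cells.

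By position, 61 members (30.5%) lie wholly inside a gene on its strand, 32 (16%) inside a gene on the opposite strand, 4 inside genes of both strands and 103 (51.5%) not wholly inside any gene, of which 93 overlap none. Among the 5896 elements that the reference annotates, 23.0% lie inside a gene on its strand and 22.7% on the opposite strand. For the 2017 element features from which the members were drawn, the shares were 27.2% and 23.4%. Of the 61 on the strand of their gene, 55 lie in an intron and 6 overlap an exon. Their UMIs were a median of 0.0795 of the UMIs of the gene around them, with a range of 0.00116 to 27.0, and 9 of them had more UMIs than that gene. Among these 9, Stalker2{}1001 had 5032 UMIs against 2655 of CG17839 and Doc{}CHKov1[Doc1420] had 3644 against 1346 of CHKov1. Some genes held several members, such as Myo81F, a myosin gene in the heterochromatin of 3R, with 4, and Nipped-A, which encodes a cofactor of histone acetylation, with 4. AGO3, which encodes a Piwi-class protein of the piRNA pathway, held 3 and flam, a piRNA cluster, held 2, all on the opposite strand. Reads of an element inside a gene can come from the unspliced transcript of that gene, and these sources cannot be told apart.

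Cell classes were called by marker genes above 0 UMIs. Neuroblasts (wor and mira) were 1666 cells, neurons (nSyb and brp) 6250, glia (repo) 842, hemocytes (Hml and NimC1) 30, antenna (Dll without elav) 773 and eye cells (eya without sim) 4370, while 21148 cells met no rule. Markers not used by the rule were at least 2-fold higher in the class for 3 of 3 genes in neuroblasts, 2 of 3 in neurons and 3 of 4 in glia. They were so for 3 of 3 in hemocytes, 4 of 5 in eye cells and 1 of 4 in antenna. Beyond its rule the antenna class thus stands on 1 marker, ss. The exception in neurons was elav, at 1.22. In the antenna class ss was at 8.16, hth at 1.77, and dan and danr at 1.09 and 1.10. The glial markers repo, alrm, Gs2 and moody were at 2.98, 4.32, 2.96 and 2.02 there, and nrv2 at 0.929. The median depth was 14091 UMIs in neuroblasts, 5605.5 in neurons, 7779 in glia, 15370 in hemocytes, 7028 in antenna and 10191 in eye cells. Between 10% of the hemocytes and 37.8% of the glia also met the rule of another class. Free RNA in the droplets adds UMIs to every class, and its part in these levels was not tested.

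Summed over the 200 members, the level lay between 15.0 and 22.8 in the classes. It was 15.3 in neuroblasts, 18.03 in neurons, 15.8 in glia, 22.8 in hemocytes, 15.0 in antenna and 16.2 in eye cells. The ratio to all other cells was 0.905 (0.897 to 0.914) in neuroblasts, 1.11 (1.10 to 1.12) in neurons, 0.945 (0.931 to 0.960) in glia, 1.37 (1.29 to 1.46) in hemocytes, 0.897 (0.880 to 0.914) in antenna and 0.966 (0.959 to 0.972) in eye cells. Neurons were thus above and neuroblasts below the other cells. Without the 3 Dm88 fragments and R2 the gap was wider, at 1.33 (1.32 to 1.35) in neurons, 0.822 (0.811 to 0.832) in neuroblasts, 0.850 (0.842 to 0.858) in eye cells and 0.765 (0.744 to 0.786) in antenna. Neurons were above the other cells in each kind of element, with 1.39 for DNA transposons, 1.32 for LTR retrotransposons without the Dm88 fragments and 1.30 for non-LTR retrotransposons without R2. In glia, only the non-LTR retrotransposons without R2 were above the other cells among the 3 kinds, at 1.26 (1.21 to 1.31).

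In neurons 31 members were at least 2-fold higher than in all other cells and 0 were at or below 0.5, with 25 members whose interval lay below 1. Outside neurons 15 of the 31 had fewer than 313 UMIs, so that they are members only through the class in which they are high, and the count is a description. The 0 depends on the processing: it was 14 as a mean over cells, 10 with cells thinned to 3000 UMIs, 6 without called doublets and 16 in cells of 1 class. Of the 8549 features with at least 313 UMIs, 10.5% were at least 2-fold higher in neurons and 2.35% at or below 0.5. The median ratio was 1.22 over the members and 1.01 over these features. The 31 members, 15.5% of the 200, included 18 LTR retrotransposons (17.0% of this kind), 8 non-LTR retrotransposons (17.8%) and 4 DNA transposons (8.89%). Among the members not wholly inside a gene they were 16 (15.5%). The X held 8 of them among its 25 members (32%), and the shares were 22.2% on 3R and 6.45% on 2R. No share over all features of the X was set beside this count.

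Members are named by their rank among those with at least 20 expected UMIs in a class (its UMIs in all cells times the class's share of all UMIs), which all 200 had in neuroblasts, neurons and eye cells. TART-A{}4601 had the highest ratio in neurons. It is a fragment of 309 bases of a telomeric non-LTR retrotransposon on chromosome 4 (1272188-1272496, minus strand). Its level was 0.0779 in neurons against 0.00704 in all other cells, 11.1-fold (9.09 to 13.5), and 448 of its 579 UMIs lay in neurons. It lies 429 bases from Cadps, a gene of dense-core vesicle release read on the other strand, which was itself 2.45-fold higher in neurons. Next were invader3{}RR48363 at 6.16-fold (4.89 to 7.79), in an intron of CG17684 and on its strand, and 17.6{}RR48352 at 5.39-fold (4.81 to 6.03), in an intron of Myo81F and on its strand. Both genes were themselves higher in neurons, CG17684 5.49-fold and Myo81F 5.43-fold. The lowest ratio in neurons was that of 3S18{}35, at 0.529 (0.397 to 0.695).

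In neuroblasts, the dividing stem cells of the larval brain, 159 of the 200 members had a ratio below 1, and in 134 the interval lay below 1. At least 2-fold higher were 7 members, against 4.99% of the 8549 features, and at or below 0.5 were 54 members, or 27%, against 22% of the features. The latter share lay near that of all features, and with either marker gene in place of both it was 22 members. The median ratio was 0.676 over the members and 0.923 over the features. A few members went the other way. gypsy12{}3705, an LTR retrotransposon that overlaps an exon of d4 on 2R, had a level of 0.0537 in neuroblasts against 0.00957 elsewhere, 5.61-fold (4.57 to 6.87). d4, the gene around it, had a ratio of 0.893. With 199 UMIs outside neuroblasts, fewer than the 313 of the last member, gypsy12{}3705 is a member only through neuroblasts. roo{}1707, in an intron of Prosap, which encodes a scaffold protein of synapses, was at 0.250 against 0.0717, 3.49-fold (3.21 to 3.80), while Prosap itself was at 0.430. Stalker2{}1042, which lies between genes on 3L, was at 0.432 against 0.144, 3.01-fold (2.83 to 3.20). For gypsy12{}3705 and roo{}1707 the ratio of the element was above that of the gene around it, and Stalker2{}1042 has no such gene. Without the 10 cells richest in each of these 3 elements, the ratios were 4.38, 3.24 and 2.39. The lowest member was 297{}4292 on X, at 0.138 (0.0860 to 0.210), which was 2.97-fold higher in neurons.

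In glia 4 members were at least 2-fold higher and 27 at or below 0.5, against 4.61% and 8.43% of the features. All 4 of the higher ones were copies of HeT-A, a telomeric non-LTR retrotransposon. HeT-A{}6262 on chromosome 4 had a level of 0.0765 in glia against 0.0162 elsewhere, 4.72-fold (3.69 to 5.99). HeT-A{}4795 on X was at 0.199 against 0.0740, 2.69-fold (2.32 to 3.09), and HeT-A{}6276 on chromosome 4 was at 0.0585 against 0.0232, 2.52-fold (1.92 to 3.26). The remaining one, HeT-A{}4800, was at 5.42-fold with fewer UMIs. It had 274 UMIs outside glia, fewer than the 313 of the last member, and is a member only through glia. The count of 4 and the range and sum of HeT-A members below include it. HeT-A and TART copies are added to chromosome ends in Drosophila, which has no telomerase. All 7 HeT-A members were above 1 in glia, with ratios of 1.80 to 5.42, and summed they were 2.50-fold (2.31 to 2.70) higher there. The same sum was at 1.39 (1.31 to 1.48) in neuroblasts, 1.06 in neurons, 1.28 in antenna, 0.943 in eye cells and 1 UMI in the 30 hemocytes. These copies are close in sequence, so that the UMIs of single copies are less certain than their sum. Of the 151 members with at least 20 expected UMIs, 17.6{}4415 on X was lowest in glia, at 0.216 (0.0699 to 0.508).

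In antenna 6 members were at least 2-fold higher and 60 at or below 0.5, or 30%, against 4.13% and 14.4% of the features. Of the 100 members with at least 20 expected UMIs there, Doc{}CHKov1[Doc1420], the Doc insertion that overlaps an exon of CHKov1 on 3R, was highest at 0.341 against 0.144, 2.37-fold (2.08 to 2.70). It was at 2.38 in antenna cells that met no other rule. G5A{}4360 had 2.48-fold (1.77 to 3.40) on fewer UMIs. CHKov1 itself was 1.69-fold higher. This element was also 2.06-fold higher in eye cells and 1.98-fold in glia, and CHKov1 was at 1.87 and 2.01 there. Next among these 100 were invader1{}1182 on 3L at 1.84-fold (1.38 to 2.41) and F{}1049, in an intron of CG32206 on 3L, at 1.68-fold (1.15 to 2.37), although CG32206 was at 0.123. The lowest of the 100, accord{}818, had 7 UMIs in antenna and a ratio of 0.108 (0.0436 to 0.224), whereas it was 3.95-fold higher in neurons.

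In eye cells 7 members were at least 2-fold higher and 28 at or below 0.5, against 5.39% and 12.8% of the features. Of the 7, 5 had fewer than 313 UMIs outside eye cells and are members only through them. Among these 5 are mariner2{}1523, Idefix{}1702 and G5A{}4360, with 119, 184 and 278 UMIs outside eye cells. mariner2{}1523, a DNA transposon on chromosome 4 (647526-648281), was highest at 0.0352 against 0.00697, 5.05-fold (4.05 to 6.34), with 256 of its 375 UMIs in eye cells. It lies between Ekar and gw, 970 and 760 bases away and read on the other strand, whose ratios in eye cells were 1.13 and 0.857. Idefix{}1702, an LTR retrotransposon between genes on 3L, was at 2.64-fold (2.16 to 3.24), and at 1.91-fold without its 10 richest cells. G5A{}4360, a non-LTR retrotransposon in an intron of CG30440, was at 2.62-fold (2.22 to 3.09), and CG30440 at 2.04. McClintock{}RR48349 on 3R was lowest, at 0.223 (0.152 to 0.318), and was 4.59-fold higher in neurons. It had 162 UMIs outside neurons, fewer than 313, and is a member only through neurons.

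**Figure D2:**
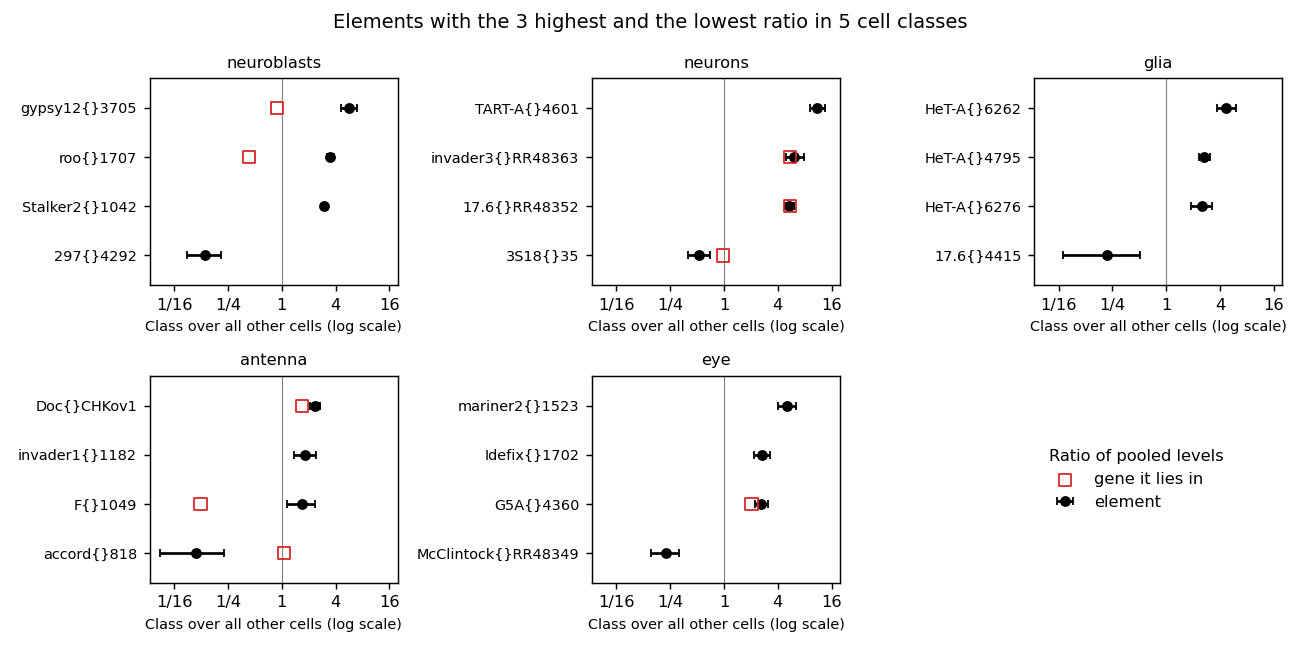
Ratio of the pooled level in a class over that in all other cells (log scale) for the 3 highest and the lowest member of 5 classes, with exact 95% counting intervals (black), and for the gene an element lies in (red squares). TART-A{}4601 at 11.1 in neurons was the highest, and it is a member only through neurons. The genes around gypsy12{}3705 and roo{}1707 were at 0.893 and 0.430 in neuroblasts.

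The ratio of an element on the strand of its gene was set beside that of the gene, as log2 values. Across these elements, which share cells and depth with their genes, Pearson's r was 0.43 in neuroblasts, 0.52 in neurons and 0.37 in glia (n = 61), and 0.55 in antenna and 0.62 in eye cells (n = 60). For the elements on the opposite strand it was −0.08, −0.07, 0.10, −0.31 and −0.25 in the same order (n = 29 to 32). The share of elements on the same side of 1 as their gene differed less by strand. It was 68.9% on the strand of the gene and 68.8% on the opposite strand in neurons, 71.7% and 64.5% in eye cells, and 78.7% and 58.1% in neuroblasts. Elements not wholly inside a gene were set beside the nearest gene upstream on their strand. Pearson's r was then 0.35 in neuroblasts, 0.19 in neurons, 0.18 in glia, 0.28 in antenna and 0.42 in eye cells (n = 71 to 81). Of these elements, 58.0% in neurons, 72.8% in eye cells and 69.2% in neuroblasts were on the same side of 1 as that gene. Elements are not independent replicates, and no test was made. Of all members at least 2-fold higher, 15 of 31 in neurons and 5 of 7 in eye cells are members only through that class. The values of r and the counts below are thus a description. In neurons, 18 of the genes with an element on their strand were at least 2-fold higher, and 16 of the elements in them were above 1 and 8 at least 2-fold higher. In neuroblasts 30 such genes were at or below 0.5, and 28 of the elements in them were below 1. The count was 9 of 13 for the opposite strand and 13 of 14 for elements not wholly inside a gene, in a class where 159 of the 200 members were below 1. The opposite-strand element H{}84 was 1.55-fold higher in neurons, while nAChRalpha3 was 6.01-fold higher.

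**Figure D3:**
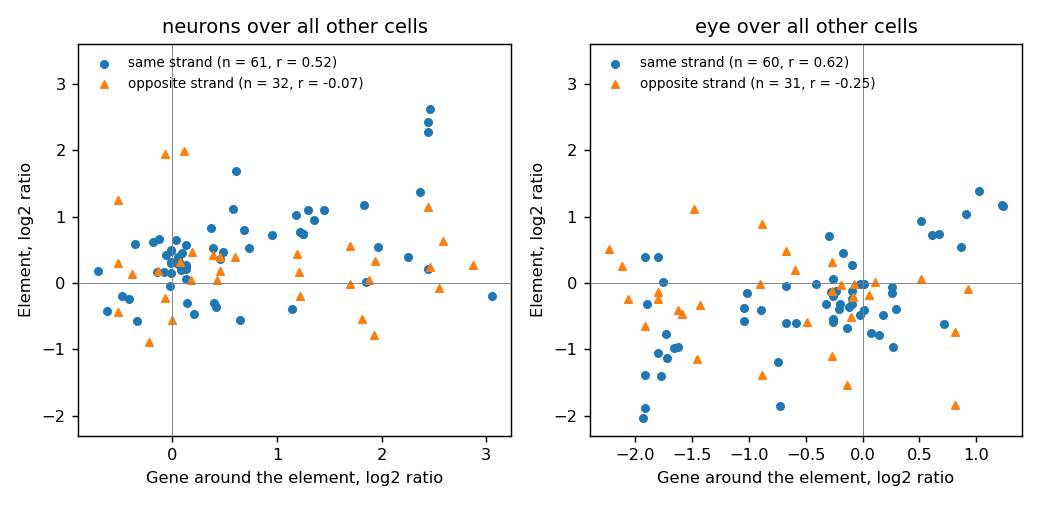
Log2 ratio of an element against that of the gene it lies in, in neurons (left) and eye cells (right), each point being 1 member, on the strand of the gene (blue circles) or opposite to it (orange triangles). Elements on the strand of their gene spread along the diagonal, with r = 0.52 and 0.62, and those on the opposite strand do not, with r = −0.07 and −0.25. Of all members at least 2-fold higher, 15 of 31 in neurons and 5 of 7 in eye cells are members only through that class.

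Hemocytes, the blood cells, gave the widest differences but the fewest cells. In the 30 cells with Hml and NimC1, 25 members were at least 2-fold higher and 113 at or below 0.5, against 11.4% and 41.8% of the features. These counts rest on little depth: 91 members had 0 UMIs there, where 3 UMIs would have been a level of 0.0681. Only R2, Dm88{}1660 and Dm88{}1659 reached 20 expected UMIs, at 2.27-fold (1.95 to 2.64), 0.699 (0.433 to 1.07) and 0.630 (0.523 to 0.754), and 67 of the 171 R2 UMIs came from 1 cell.

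The roo family, among the most numerous LTR retrotransposons of this species, stood out in these cells and was singled out after its values had been seen. Its 14 members together had a level of 10.2 in the 30 hemocytes against 0.480 in all other cells, 21.3-fold (19.4 to 23.4), from 451 UMIs. A roo UMI was found in 96.7% of these cells and in 23.3% of the others, at median depths of 15370 UMIs in the hemocytes and 4092 over all cells. At least 2-fold higher were 12 of the 14 roo members and 13 of the other 186, and the median ratio was 26.6 against 0.203. roo{}1034 (FBti0020145, 3L at 18047763-18056761, in Eip75B on the opposite strand) had the highest ratio, at 111 (87.5 to 140), with 90 UMIs in 14 of the 30 cells. roo{}1707 had 12 UMIs and a ratio of 2.79 (1.44 to 4.89), and roo{}1670 and roo{}1458 had 1 and 3 UMIs.

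Since 30 cells are few, the class was widened to the 524 cells with either gene. There, the roo members were at 1.55 against 0.453, 3.42-fold (3.24 to 3.61), and 10 of 14 were at least 2-fold higher, against 4 of the other 186 and 5.71% of all features. The 484 cells with Hml alone were at 2.36-fold and the 10 cells with NimC1 alone at 6.82-fold. With NimC1 alone, 39 of the 48 roo UMIs came from 1 cell and 40% of the cells held any. With Hml alone, 111 of the 1051 roo UMIs came from 1 cell. roo{}1034 was at 23.6-fold (19.8 to 28.02), with 50.3% of its UMIs in cells that held 4.11% of all UMIs. Its 267 UMIs outside these cells were fewer than the 313 of the last member, and so were the 309 of roo{}34 outside the 30 hemocytes, so both are members only through the cells in which they are high. Over all 128 roo features of the table, the ratio was 31.1 in the 30 cells and 4.18 in the 524. The 186 other members summed were at 0.777 and 0.982. The hemocyte genes He, Pxn and srp were at 35.6, 142 and 38.5 in the 30 cells and at 46.0, 52.6 and 26.9 in the 524. Copies of roo are nearly identical, so that reads may be counted on a copy other than their source or be lost, and the family sum is the firmer value.

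**Figure D4:**
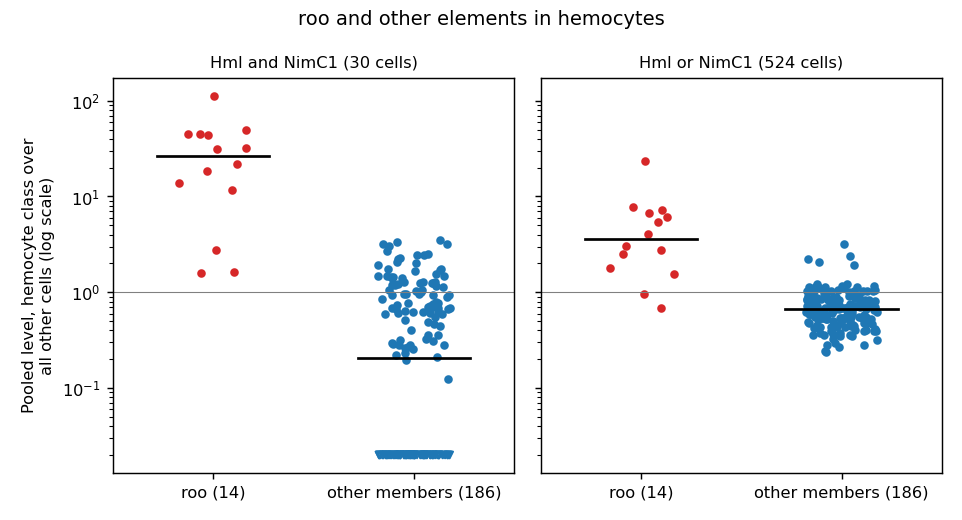
Ratio of the pooled level in hemocytes over all other cells (log scale), by both marker genes (left, 30 cells) and by either (right, 524 cells), for the 14 roo members (red) and the 186 other members (blue), with lines at the medians. Triangles at the lower edge of the left plot are the 91 members with 0 UMIs. The medians were 26.6 and 0.203 on the left and 3.56 and 0.674 on the right.

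Eye cells were split by the dorsal genes mirr, ara and caup. Those that held any of these transcripts are called d (1724 cells, median depth 13812.5 UMIs) and those that held none v (2646 cells, 8581 UMIs). Whether the d cells carry silenced ND-42 is open here, because the genotype is. The members summed were at 16.7 in d and 15.7 in v cells, a ratio of 1.07 (1.05 to 1.08), and without the Dm88 fragments the ratio was 1.006 (0.991 to 1.02). As a mean over cells the ratio was 0.989. At least 2-fold higher in d cells were 4 members and at or below 0.5 were 8, against 3.4% and 2.47% of the features, and the median ratios were 1.02 and 0.981. A ratio above 1 was found for 103 members, against 45.2% of the features.

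mdg1{}1720, an LTR retrotransposon in an intron of CG11883 on 2R, had the highest ratio, at 0.173 in d and 0.0379 in v cells, 4.55-fold (3.75 to 5.57). Its signal came from few cells. It had up to 312 UMIs in 1 cell, and without its 10 richest cells the ratio was 0.758 (0.583 to 0.986), on the other side of 1. Over the whole table, 15 cells with 10 or more of its UMIs held 44.7% of its 2001 UMIs. In these 15 cells the other 24 mdg1 features were at 5.13, against 0.163 elsewhere, 31.5-fold (28.1 to 35.2). CG11883 was at 0.0306 and 0.0351, the former from only 2 UMIs. The 15 cells were picked by their mdg1{}1720 UMIs, and whether mdg1 copies share reads was not tested. The 15 cells were deep, with a median of 33010 UMIs against 4089, and 4 of them were d and 1 was v eye cells. mdg1{}1280, on 3R in Teh1 and opposite to it, was second at 3.08-fold (1.97 to 4.99), and at 1.37 (0.819 to 2.34) without its 10 richest cells.

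The remaining named members kept their direction without their richest cells. G5A{}4360 was at 0.0570 in d and 0.0246 in v cells, 2.32-fold (1.79 to 3.04), and at 2.19 without the 10 cells. It was at 2.33 in eye cells with elav and 2.08 in those without. Max{}5599 on 3L was lowest, at 0.203 (0.131 to 0.306), from 30 UMIs in d and 117 in v cells. 17.6{}RR48333, in Myo81F, was at 0.0679 in d and 0.239 in v cells, a ratio of 0.283 (0.246 to 0.326), and Myo81F itself was at 0.649. Its ratio was 0.315 in cells with elav and 0.181 in cells without. INE-1{}5123, a short DNA element in an intron of ap, a homeobox gene, was at 0.381 (0.174 to 0.787) from 37 UMIs, and ap at 0.514.

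**Figure D5:**
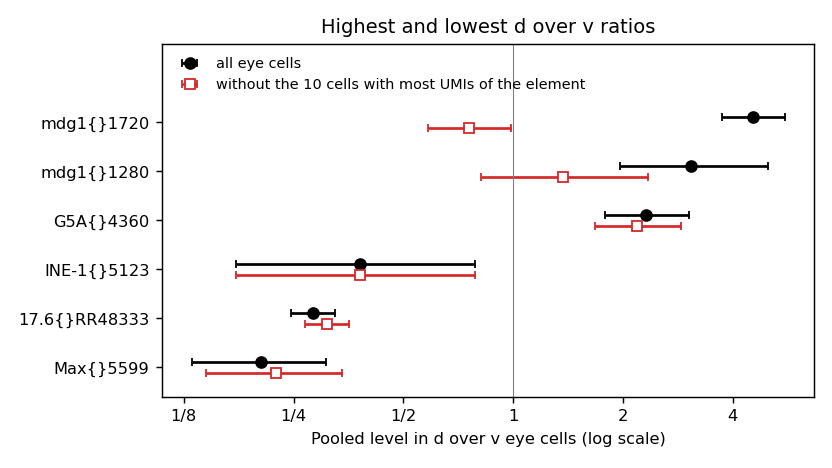
Ratio of the pooled level in d over v eye cells (log scale) for the 3 highest and 3 lowest members, in all eye cells (black) and without the 10 cells richest in that element (red), with exact 95% counting intervals. mdg1{}1720 moved from 4.55 to 0.758, whereas Max{}5599, 17.6{}RR48333 and INE-1{}5123 stayed at or below 0.381.

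The roX1 and roX2 RNAs, which coat the X chromosome of males, were used to tell cells by sex. Cells of at least 2000 UMIs with 2 or more roX UMIs numbered 15222 (median depth 6545.5 UMIs) and those with 0 numbered 7557 (4083 UMIs), so that depth differs with the groups. The members summed had a ratio of 1.02 (1.01 to 1.03), and of 0.945 (0.936 to 0.954) without the Dm88 fragments. At least 2-fold higher in roX-positive cells were 7 members and at or below 0.5 were 7, against 3.02% and 4.35% of the features. A ratio above 1 was found for 71 members of the 200, against 49.8% of the features. The 25 members on X had a median ratio of 0.786, and the other X features with at least 313 UMIs one of 0.954. A gap of the same direction was found on the autosome arms, with medians of 0.844 and 1.02 on 2L, 0.882 and 1.02 on 2R, 0.857 and 0.992 on 3L and 0.913 and 1.02 on 3R. On chromosome 4 they were 0.921 and 0.890.

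1731{}RR48331, a copia-like LTR retrotransposon that overlaps an exon of Maf1 on 2R (1516663-1521332, minus strand), had the highest ratio. It was at 0.155 in roX-positive and 0.0258 in roX-negative cells, 6.0-fold (4.97 to 7.30), while Maf1, which encodes a repressor of RNA polymerase III, was at 0.955. The ratio was 20.1 (10.5 to 44.1) within neurons, 4.89 (2.99 to 8.62) within eye cells, 4.98 (1.64 to 24.7) within glia and 6.31 (2.03 to 31.7) within antenna. The same direction was seen in each of these classes, and the ratio was 5.44 without its 10 richest cells. mdg1{}1720 followed at 2.35 (2.01 to 2.76), but at 1.36 without its richest cells and at 0.259 within glia. roo{}1707 was at 2.33 (2.03 to 2.69) in all cells, 2.87 within neurons, 2.18 (0.952 to 6.14) within glia, 1.41 within eye cells and 1.02 within antenna. Among the first 10 members, R2 was at 1.33 in all cells, 2.12 within neurons, 1.53 within eye cells and 0.962 within antenna.

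The genes that silence elements were looked at beside them, from a list of 20 genes chosen with earlier results known, of the piRNA, small interfering RNA and heterochromatin pathways. At least 313 UMIs were found for 14. At least 2-fold higher in neuroblasts were 3 of the 14, against 4.99% of all features, namely Panx (2.34-fold), which links Piwi to transcriptional silencing, Su(var)3-9 (2.11-fold), a histone methyltransferase, and mael (2.11-fold), a piRNA pathway factor. The median over the 14 was 1.46 in neuroblasts and 0.913 in neurons, and that over all features with at least 313 UMIs was 0.923 and 1.01. In neurons, glia and eye cells 0 of the 14 were past 2-fold in either direction, and in antenna 1 was at or below 0.5. Genes of the list with fewer than 313 UMIs are outside this count. Of these, zuc (288 UMIs) was at 3.57 (2.51 to 4.96) and AGO3 (253 UMIs) at 3.36 (2.28 to 4.81) in glia. rhi (235 UMIs) was at 3.46 (2.65 to 4.54) in eye cells. In glia rhi was at 0.454 (0.146 to 1.08) from 5 UMIs, and armi and piwi had 0 UMIs. In hemocytes 2 were higher and 8 lower, near the shares of 11.4% and 41.8% of all features, and the higher ones, arx and aub, had 6 and 5 UMIs there. In neuroblasts vas (102 UMIs) was at 6.3 (4.2 to 9.5) from 53 UMIs, whereas rhi was at 0.573 (0.348 to 0.899) from 21 UMIs. The intervals of zuc and AGO3 spanned 1 there. armi had 37 UMIs and piwi 25 in the whole table, so their class ratios were not read. The part of these genes in the levels of the elements was not tested.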

How the data were processed

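Per the methods, the authors mapped reads and counted UMIs with Cell Ranger on BDGP6. They deposited natural log values (1 plus UMIs per 10000 UMIs of a cell). Whole UMIs were recovered in 100% of values (tolerance 0.01). Labels give 1 library per genotype, the study's design text triplicates, and neither stated cell number equals 33552. The members, gene lists and comparisons were chosen with earlier results of these data known. All cells were kept. Scrublet (scanpy 1.11.5, Python 3.11.15) called 4304 cells (12.8%) as doublets, from 3.33% of hemocytes to 24.2% of neurons, and these were left out in 1 alternative.

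Levels are pooled UMIs per 10000. Ratios need no pseudocount. Positions come from the Ensembl BDGP6 annotation, which matched 2016 of 2017 features. Named are the first 10 members, the 3 highest and 1 lowest ratio per class (at least 20 expected UMIs), the 3 highest and 3 lowest d over v, and the 3 highest roX ratios. Names beyond these were chosen after values were seen. On simulated counts the direction and interval coverage were checked. Only uniquely mapped reads are counted by default, and insertions of these flies may differ from the reference, which was not tested.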

Additional observations from a re-analysis of the deposited data

How the results depend on the processing

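No paired analysis was possible because the 2 tables are identical and hold 1 set of cells. There are no replicates to leave out. Ratios are of the summed members, class over all other cells, and a value is given where it left its own 95% interval or a count moved by over 1.5 times.

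As a mean over cells, the ratios were 0.858 in neuroblasts, 1.03 in neurons, 0.916 in glia, 0.951 in antenna, 0.878 in eye cells and 0.989 for d over v, which crossed 1. Members 2-fold higher then numbered 12 in neuroblasts, 9 in glia and 12 in antenna, and 14 were low in neurons. With cells thinned to 3000 UMIs (20767 cells, 12785 too shallow), the ratios were 0.978, 1.14, 0.984, 1.72 in hemocytes, 0.915, 0.998 in eye cells, 1.04 for d over v and 1.06 for roX. Members higher were 14 in neuroblasts, 11 in glia, 16 in antenna and 11 in eye cells, and members low were 10 in neurons and 41 in glia. With either marker gene, neuroblasts were at 0.919 with 22 members low and hemocytes at 1.05 with 14 higher and 43 low. Without called doublets, the ratios were 0.882 in neuroblasts, 1.14 in neurons, 0.963 in glia and 0.958 in eye cells, with 6 members low in neurons and 8 higher in glia. In cells of 1 class only, neurons were at 1.14, glia at 0.894 and eye cells at 0.949, with 12 members higher in neuroblasts, 16 low in neurons, 11 higher and 54 low in glia.

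The first 100 members gave 0.932 in neuroblasts, 1.08 in neurons, 1.16 in hemocytes and 0.979 in eye cells. All element features gave 0.857, 1.17, 2.38 and 0.933 there, and 0.872 in antenna. Without Dm88{}1659 the values were 0.935 in neuroblasts, 1.18 in neurons, 0.967 in glia, 1.63 in hemocytes, 0.833 in antenna, 0.868 in eye cells and 1.01 for d over v. Past 3-fold were 3 higher and 15 low in neuroblasts, 14 higher in neurons, 2 higher and 5 low in glia, 16 higher in hemocytes, 0 higher and 29 low in antenna, and 1 higher and 12 low in eye cells.

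Chosen after seeing the data were the following. Without the Dm88 locus and R2, the ratios were 0.822, 1.33, 0.928 in glia, 1.63 in hemocytes, 0.765 and 0.850. For d over v, eye cells of no other class (planned) gave 1.05, roX-positive eye cells 1.05, roX-negative ones 1.12, and leaving out the Dm88 locus 1.006. In roX-negative eye cells mdg1{}1720 was at 0.603 and mdg1{}1280 at 0.753, and without its 10 richest cells mdg1{}1720 was at 0.758. roX ratios of the sum were 1.03 within neurons, 1.06 within glia, 1.07 within antenna and 1.06 within eye cells, and mdg1{}1720 was at 0.259 within glia and 0.566 within antenna. The cause of these shifts was not tested. The other 51 values of summed ratios and counts stayed within these limits. Of the values of named members, 108 stayed within them, 76 moved and 5 crossed 1.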
